A study of Mus musculus with 6 samples.

Results

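Chemokines are small secreted proteins that direct leukocyte migration, and their receptors are G-protein-coupled receptors on the cells that respond. The members described here were the protein-coding chemokine and chemokine receptor genes of the mouse genome, chosen by gene symbol alone: CC, CXC, CX3C and XC ligands, their conventional receptors and the atypical receptors. The rule found 66 of the 54532 genes in the count table, of which 44 were ligand genes and 22 were receptor genes. These 66 genes carried 61 distinct symbols, because 7 of them lay on unplaced scaffolds, several as further copies of a chromosomal gene. The rule itself used no measured value, but the members were chosen with earlier results of these data known.

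RNA was sequenced from 6 mouse livers, 3 from control mice of genotype LysM+/+ Cd44flox/flox and 3 from knockout mice of genotype LysMcre/+ Cd44flox/flox, all on the C57BL/6J/Rj background. Every mouse, control and knockout, carried the floxed Cd44 alleles and received ethanol: a liquid Lieber-DeCarli diet with 6% ethanol by volume for 10 days, then on day 11 a gavage of 5 g of ethanol per kg, with tissue taken 9 h later. The Cre is expressed from the LysM locus (gene Lyz2), which is active in monocytes, macrophages and neutrophils, so the deletion of Cd44, a hyaluronan receptor and adhesion molecule, was directed to myeloid cells and not to hepatocytes. The groups differed in the Cre allele and in the deletion at once, and those 2 differences cannot be told apart; no liver without ethanol was analysed here. The sources used here gave neither age nor sex.

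Chemokines of the inflammatory kind are induced by tumour necrosis factor, interleukin-1, interferons and bacterial products, and recruit neutrophils through CXCR2, monocytes through CCR2 and CX3CR1, and T and NK cells through CXCR3 and CXCR6. Homeostatic chemokines such as Cxcl12 are made steadily by stromal and endothelial cells and keep leukocytes and progenitors in place. In alcohol-exposed liver the family is known for the recruitment of neutrophils and monocytes, with Kupffer cells, endothelial cells, stellate cells and hepatocytes all able to make ligands.

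Libraries held 18428224 to 24042917 counts, so that 3 counts, the limit that a count of 0 allows, corresponded to 0.119 to 0.148 CPM, counts scaled to a common library size after TMM normalisation, in a library (counting error only). Cd44 checked the labels: it was at 32.6, 34.8 and 26.4 CPM in the control livers and at 2.11, 1.92 and 3.01 CPM in the knockout livers (log2 difference -3.73, SE 0.20, adjusted p = 9.07e-05). Lyz2, the locus that carries the Cre, was at 195, 218 and 235 CPM against 41.3, 36.9 and 66.5 CPM. Log2 differences are knockout minus control on TMM-normalised counts, and adjusted p-values are from edgeR's quasi-likelihood test with Benjamini-Hochberg adjustment over the 14758 genes that passed the count filter. A gene is said to have fallen or risen where its adjusted p was under 0.05.

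Promoters of 3 ligands that fell in the knockout livers are shown because they carry the best-known control sites of inflammatory chemokines. RefSeq promoter sequences of the files' build (GRCm38.p6), from 250 bases before to 50 bases after each start, were matched by symbol for 26 of the 34 members that could be tested, and for 8 of the 13 that fell. The kappa-B motif, the site of NF-kappa-B, taken as GGGA and TTCC with any 2 bases between them, was searched on both strands and was present in 1.47% of all 32851 promoters. It was found in the promoters of Cxcl1, Cxcl2 and Cxcl10, which are 3 of the 8 matched promoters of members that fell, and in 0 of the 21 matched promoters (of 18 genes) of tested members that did not fall. It began 71 bases before the start of Cxcl1, 97 before that of Cxcl2 and 159 before that of Cxcl10. These are the RefSeq starts, which for Cxcl1 and Cxcl2 lie inside the gene spans given below, so distances from those spans are shorter. In Cxcl1 and Cxcl2 the motif is found on both strands in overlapping positions. The interferon-response motif, GAAA and GAAA with any 2 bases between them and present in 3.44% of all promoters, was found in Cxcl10, 213 bases before the start, and in Cxcl14. The AP-1 motif TGANTCA, present in 7.81% of all promoters, was found in Cxcl10, Cxcl9, Ccl9 and Ccl27a. The motifs were searched after the expression values were known, and a match describes letters, not a bound site. Only these exact spellings were searched, so a promoter without a match can still hold a site of another spelling. The same holds for the letters left in lower case below, those of Cxcl10 among them. In the sequences the kappa-B matches, and in Cxcl10 also the interferon-response match, are in capitals. The stretch of Cxcl1 is chr5:90891135-90891244 on the plus strand, that of Cxcl2 is chr5:90903789-90903898 on the plus strand, and that of Cxcl10 is chr5:92348890-92349109 on the minus strand.
Cxcl1: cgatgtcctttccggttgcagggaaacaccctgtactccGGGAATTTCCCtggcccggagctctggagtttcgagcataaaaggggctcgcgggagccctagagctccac
Cxcl2: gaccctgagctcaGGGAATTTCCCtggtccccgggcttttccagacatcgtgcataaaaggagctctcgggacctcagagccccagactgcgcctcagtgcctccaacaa
Cxcl10: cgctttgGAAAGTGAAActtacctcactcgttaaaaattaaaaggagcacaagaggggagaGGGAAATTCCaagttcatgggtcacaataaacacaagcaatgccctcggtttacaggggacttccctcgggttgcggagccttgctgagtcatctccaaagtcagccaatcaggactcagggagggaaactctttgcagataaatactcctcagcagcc

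Of the 66 members, 34 passed the count filter and were tested. Among these, 13 fell in the knockout livers, 1 rose and 20 did not pass. Of all tested genes, 13.1% fell, 11.9% rose and 25% did one or the other. The members' median log2 difference was -0.85, against -0.01 over all tested genes, and 29 of the 34 had a negative sign. Control and knockout livers did not overlap for 20 members, 18 with the knockout livers below and 2 with them above, against 22.5% and 21.4% of all tested genes. The 8 ligands that fell, of 20 tested, were Ccl2, Ccl5, Ccl6, Ccl7, Cxcl1, Cxcl2, Cxcl10 and Cxcl16, and the ligand that rose was Cxcl12. Of 14 tested receptors 5 fell, among them Ccr1, Ccr2, Cx3cr1 and Cxcr4, and the number that rose was 0 in edgeR, DESeq2 and limma-voom, where 1 receptor was higher by its unadjusted p (under 0.05). In bulk liver, fewer cells of a type and less RNA per cell cannot be told apart.

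**Figure D1:**
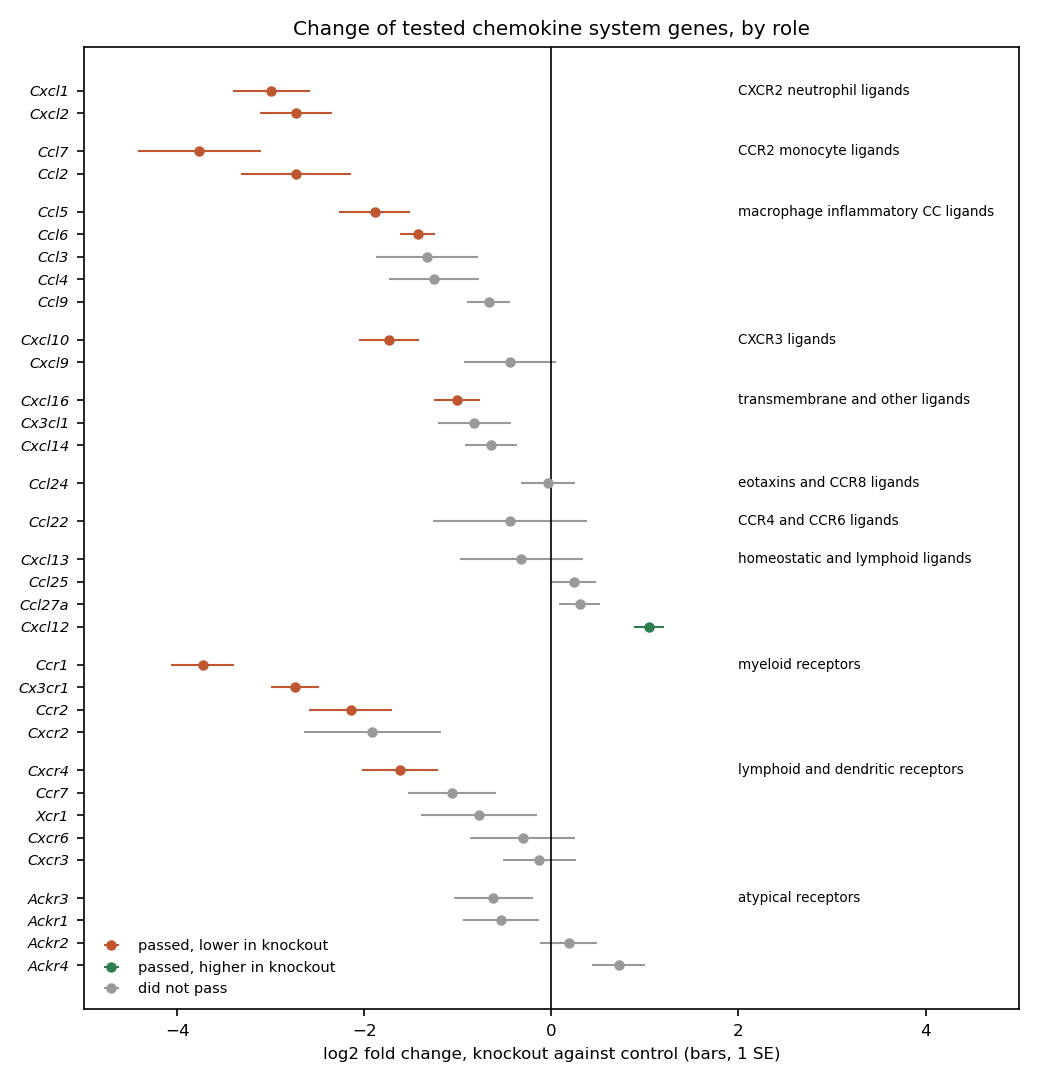
Log2 difference (knockout minus control, x axis) of 33 of the 34 tested members, ordered by role; bars are the standard error of the edgeR estimate (3 livers a group) and coloured points passed the test. The CXCR2 and CCR2 ligands and the myeloid receptors lie farthest left, and Cxcl12 is the coloured point to the right of 0.

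Of the 5 ligands of CXCR2, which attract neutrophils, 2 were tested and both fell. Cxcl1 (ENSMUSG00000029380, chr5:90891241-90893115) was at 29.4, 25.3 and 37.3 CPM in the control livers and at 1.49, 6.40 and 3.65 CPM in the knockout livers. Every knockout liver lay far below every control liver, and the fall was 7.97-fold (log2 -2.99, SE 0.41, adjusted p = 0.00205). Cxcl2 (ENSMUSG00000058427, chr5:90903871-90905938), which encodes the related attractant MIP-2, was scarcer, at 2.62, 2.42 and 3.09 CPM against 0.575, 0.192 and 0.444 CPM. It fell 6.63-fold (log2 -2.73, SE 0.39, adjusted p = 0.00241), again with no overlap. A further CXCR2 ligand, Cxcl5, missed the count filter, with 1, 22 and 12 counts in the control livers against 0, 1 and 2 in the knockout livers; control liver 1 lay within the knockout range. DESeq2, which applied its own filter on low counts, called all 3 of the CXCR2 ligands it tested lower. Cxcl3 and Cxcl15 had 0 counts in all 6 livers. Cxcr2 itself, the receptor that brings neutrophils out of marrow and into tissue, was at 1.55, 1.21 and 1.13 CPM against 0, 0.289 and 0.739 CPM. The groups did not overlap, but the difference did not pass (log2 -1.91, adjusted p = 0.0898). It passed by limma-voom (adjusted p = 0.0495), with library totals in place of TMM, with no count filter, and without knockout liver 3.

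Of the 3 ligands of CCR2, which draw monocytes from blood, 2 were tested and both fell. Ccl2 (ENSMUSG00000035385, chr11:82035571-82037453), also called MCP-1, was at 9.89, 14.0 and 7.70 CPM in the control livers and at 0.384, 1.01 and 3.35 CPM in the knockout livers. The fall was 6.65-fold (log2 -2.73, SE 0.59, adjusted p = 0.0124). Knockout liver 3 was the highest of its group, and without it the log2 difference was -3.90. Ccl7 (ENSMUSG00000035373, chr11:82045712-82047525), or MCP-3, was counted 35, 55 and 34 times in the control livers and 0, 3 and 5 times in the knockout livers. Its fitted fall of 13.6-fold (log2 -3.77, SE 0.66, adjusted p = 0.00532) rests on these few counts, and the log2 difference was -4.56 without knockout liver 3. Ccl12, or MCP-5, was not tested: it had 13, 2 and 1 counts in the control livers and 0 in each knockout liver, with control liver 1 holding most of them.

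Their receptor Ccr2, which marks inflammatory monocytes, was at 10.9, 4.84 and 7.09 CPM in the control livers and at 1.20, 1.01 and 2.96 CPM in the knockout livers. It fell 4.43-fold (log2 -2.15, SE 0.45, adjusted p = 0.0109), and the log2 difference was -2.78 without knockout liver 3, the highest of the knockout livers. Cx3cr1, the fractalkine receptor of patrolling monocytes and some tissue macrophages, was at 6.12, 4.40 and 6.44 CPM against 0.767, 0.866 and 0.887 CPM. The 3 knockout livers were close to each other and all below the controls, a 6.70-fold fall (log2 -2.74, SE 0.26, adjusted p = 0.000605). Its transmembrane ligand Cx3cl1 overlapped between the groups, with 2.26, 1.55 and 2.70 CPM against 0.767, 1.88 and 1.04 CPM, and did not pass (log2 -0.82, adjusted p = 0.158). Cx3cl1 passed only when knockout liver 2 was left out (log2 -1.26, adjusted p = 0.0479).

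**Figure D2:**
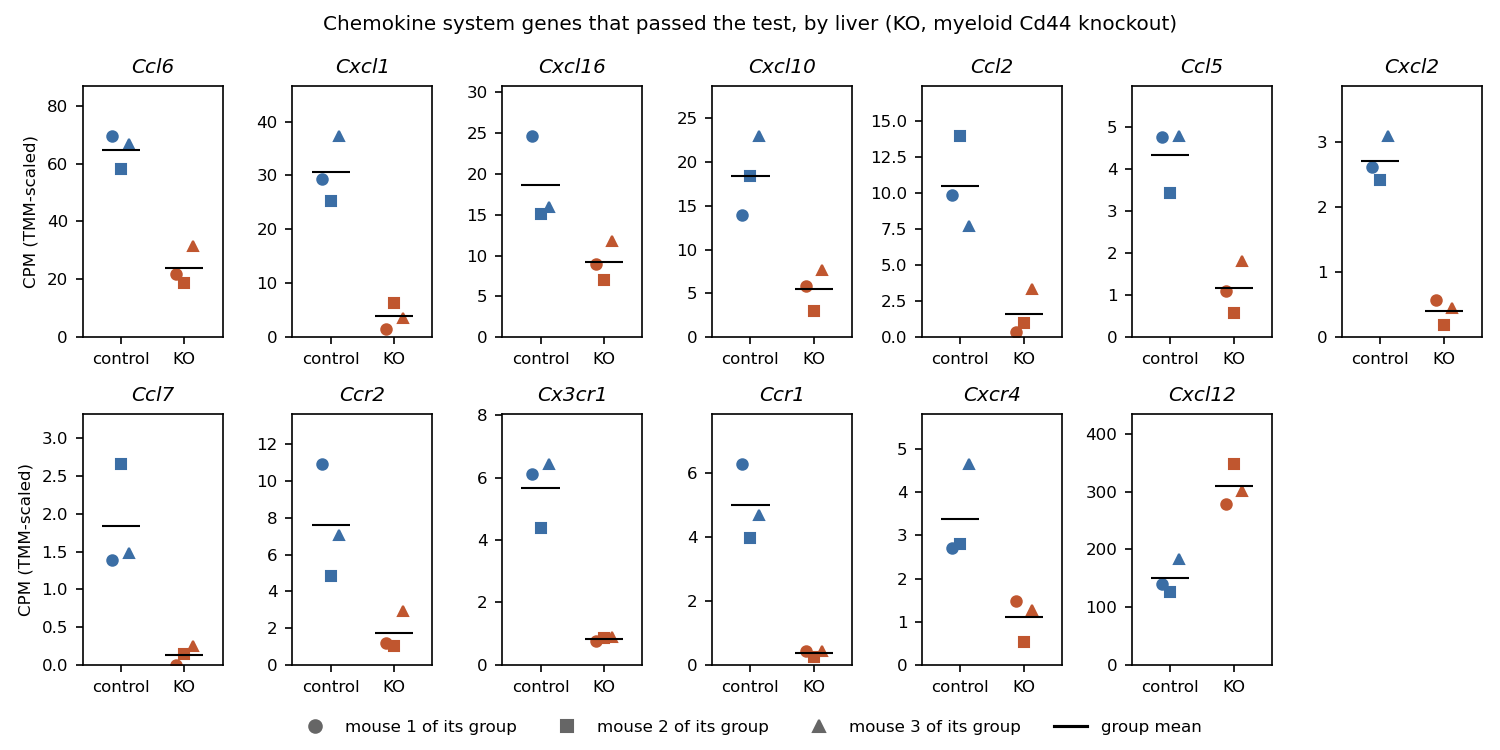
CPM in each of the 6 livers (y axis, linear from 0 with its own scale in each panel; 1 point a liver, line at the group mean) for 13 of the 14 members that passed the test. Knockout points lie below all control points for 12 members and above them for Cxcl12, where the controls span 127 to 183 CPM and the knockouts 279 to 348 CPM.

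The macrophage inflammatory CC ligands Ccl3, Ccl4, Ccl5, Ccl6 and Ccl9 are made largely by macrophages and other leukocytes. All 5 were tested and all had negative differences, but 2 passed. Ccl6, a CCR1 ligand abundant in mouse myeloid cells, was at 69.5, 58.3 and 66.8 CPM in the control livers and 21.9, 18.7 and 31.5 CPM in the knockout livers. It fell 2.70-fold (log2 -1.43, SE 0.19, adjusted p = 0.00185) with no overlap. Ccl5, or RANTES, a product of T and NK cells and macrophages, was at 4.77, 3.43 and 4.78 CPM against 1.10, 0.577 and 1.82 CPM. The fall was 3.70-fold (log2 -1.89, SE 0.38, adjusted p = 0.00954). Ccl9, a further CCR1 ligand of macrophages, was at 98.1, 169 and 174 CPM against 99.6, 104 and 73.5 CPM. Control liver 1 lay among the knockout livers, and Ccl9 did not pass (log2 -0.67, adjusted p = 0.0651). It passed by DESeq2 (adjusted p = 0.0254), with library totals, with no count filter, and without control liver 1 (log2 -0.88, adjusted p = 0.0147). Ccl3 and Ccl4, the macrophage inflammatory proteins 1-alpha and 1-beta, were low, and their knockout livers all lay below their control livers. Ccl3 was at 1.51, 2.03 and 1.26 CPM against 0.144, 0.722 and 1.04 CPM and did not pass (log2 -1.33, adjusted p = 0.110). Ccl4 was at 1.83, 1.11 and 1.48 CPM against 0.575, 0.241 and 1.04 CPM and did not pass either (log2 -1.26, adjusted p = 0.0903), although it did without knockout liver 3 (log2 -1.84, adjusted p = 0.0358).

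Ccr1, their receptor on monocytes, macrophages and neutrophils, fell as well. It was at 6.27, 3.97 and 4.70 CPM in the control livers and at 0.432, 0.241 and 0.444 CPM in the knockout livers. Every knockout liver lay far below every control liver, and the fall was 13.2-fold (log2 -3.73, SE 0.34, adjusted p = 0.000565), with 9, 5 and 9 counts in the knockout livers. Ccr3, the eotaxin receptor, had 7, 3 and 5 counts against 1, 2 and 1, and Cxcr1 had few counts.

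The CXCR3 ligands, which are induced by interferons and attract T and NK cells, differed from each other in what the test gave. Cxcl10 (ENSMUSG00000034855, chr5:92346638-92348889) was at 14.0, 18.5 and 23.0 CPM in the control livers and 5.90, 3.03 and 7.69 CPM in the knockout livers. It fell 3.33-fold (log2 -1.74, SE 0.32, adjusted p = 0.00652) with no overlap. Its exons share 133 bases with Art3, which did not pass (log2 -0.20, adjusted p = 0.666), and the sources used here do not say whether counting used strand. Cxcl9 was at 12.7, 20.7 and 20.9 CPM against 10.8, 4.57 and 24.5 CPM. Knockout liver 3 held the highest Cxcl9 of all 6 livers and knockout liver 2 the lowest, and the gene did not pass (log2 -0.44, adjusted p = 0.55). The log2 difference of Cxcl9 from Cxcl10 within a library was -0.04 ± 0.18 (SD, n = 3) in the control livers and 1.04 ± 0.56 (SD, n = 3) in the knockout livers, with no overlap. An exact two-sided permutation test of that difference gave p = 0.1, the smallest that 3 against 3 livers allow, and 0.133 after adjustment over the 4 pairs of genes compared in this way, a choice made with their values known. The pair of Ccl9 and Ccl6 overlapped between the groups, with Ccl9 above Ccl6 by 1.14 ± 0.56 in the control livers and by 1.96 ± 0.66 in the knockout livers (log2 difference, SD, n = 3; exact two-sided permutation p = 0.3, adjusted 0.3). Cxcr3, their receptor on activated T and NK cells, was at 1.19, 0.677 and 1.04 CPM against 0.623, 0.770 and 1.28 CPM, overlapped and did not pass (log2 -0.13, adjusted p = 0.838).

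Cxcl12 (ENSMUSG00000061353, chr6:117168535-117181367), or SDF-1, the stromal ligand of CXCR4, was the 1 member that rose. It was at 140, 127 and 183 CPM in the control livers and at 279, 348 and 301 CPM in the knockout livers (150 ± 29.3 against 309 ± 35.5, SD, n = 3). Every knockout liver lay above every control liver (log2 1.04, SE 0.16, adjusted p = 0.00369). Its receptor Cxcr4, carried by most leukocytes, moved the other way, at 2.70, 2.80 and 4.65 CPM against 1.49, 0.529 and 1.28 CPM. Cxcr4 fell 3.07-fold (log2 -1.62, SE 0.40, adjusted p = 0.0214), but did not pass without control liver 3 (log2 -1.30, adjusted p = 0.0803). Ackr3, the scavenging receptor that also binds CXCL12, was low and overlapped, at 0.913, 1.40 and 1.13 CPM against 0.671, 1.15 and 0.394 CPM (log2 -0.62, adjusted p = 0.318). Within a library the log2 difference of Cxcl12 from Cxcl1 was 2.29 ± 0.04 (SD, n = 3) in the control livers and 6.55 ± 0.90 (SD, n = 3) in the knockout livers. That of Cxcl12 from Cxcr4 was 5.49 ± 0.20 against 8.22 ± 0.94. Each had an exact two-sided permutation p of 0.1 (adjusted 0.133), the smallest possible here. Both pairs were picked with their values known and join the member that rose with a member that fell. Their separation therefore follows from the values above and is no further result.

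The other homeostatic ligands did not pass. Ccl25, a gut and thymus ligand of CCR9, was at 4.05, 4.93 and 6.13 CPM against 4.75, 7.55 and 5.52 CPM (log2 0.24, or -0.023 with library totals). Ccl27a, a ligand of the skin-homing receptor CCR10, averaged 3.90 ± 0.53 CPM against 4.8 ± 0.856 CPM (SD, n = 3; log2 0.30, adjusted p = 0.348). Ccl27a has near-identical copies, between which the counting could split reads. Cxcl13, the B-cell attractant, was at 4.49, 1.84 and 3.35 CPM against 0.815, 5.68 and 1.28 CPM. Knockout liver 2 alone held the highest value of all, and Cxcl13 passed only when that liver was left out (log2 -1.62, adjusted p = 0.0372).

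Of the transmembrane and remaining ligands, Cxcl16 fell. Cxcl16, a membrane-bound ligand of CXCR6 and a scavenger receptor for oxidised lipoprotein, was at 24.6, 15.1 and 16.0 CPM in the control livers and at 9.01, 7.02 and 11.7 CPM in the knockout livers. The fall was 2.01-fold (log2 -1.01, SE 0.24, adjusted p = 0.0188), and it did not pass without control liver 1 (log2 -0.74, adjusted p = 0.0529) or without knockout liver 1 (log2 -0.98, adjusted p = 0.0641). Its exons share 552 bases with Zmynd15. Cxcr6, which keeps NK T cells and resident T cells in the liver, was at 0.238 to 0.774 CPM against 0.288 to 0.739 CPM and did not pass (log2 -0.31, adjusted p = 0.730). Cxcl14, an epithelial ligand, was lower in every knockout liver, at 5.12, 5.61 and 4.09 CPM against 3.88, 2.02 and 3.55 CPM, but did not pass (log2 -0.65, adjusted p = 0.125). Ccl24, an eotaxin made by macrophages, had nearly the same level in the groups, 1.23 ± 0.142 CPM against 1.20 ± 0.203 CPM (SD, n = 3; log2 -0.04, SE 0.29). Ccl22, a dendritic-cell and macrophage ligand of CCR4, overlapped at 0.242 to 0.913 CPM against 0.0962 to 0.986 CPM (log2 -0.44, adjusted p = 0.732).

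Receptors of lymphocytes and dendritic cells were scarce, and of the 5 tested only Cxcr4, described above, passed. Ccr7, which takes dendritic cells and naive T cells to lymph nodes, was at 0.834, 0.484 and 0.609 CPM against 0.384, 0.144 and 0.394 CPM, with no overlap but no pass (log2 -1.06, adjusted p = 0.135). Xcr1, the receptor of cross-presenting dendritic cells, was at 0.834, 0.435 and 0.304 CPM against 0.0959, 0.289 and 0.542 CPM and overlapped (log2 -0.77, adjusted p = 0.403). The 4 atypical receptors, which bind chemokines without G-protein signalling, were all tested; 0 passed in edgeR, DESeq2 and limma-voom, and 1 was higher by its unadjusted p (under 0.05). That 1 was Ackr4, a scavenger of CCL19, CCL21 and CCL25, at 1.07, 1.5 and 1.17 CPM against 1.68, 2.21 and 2.27 CPM (log2 0.72, adjusted p = 0.0987), whose exons share 479 bases with Acad11. Ackr2, a scavenger of inflammatory CC chemokines, averaged 1.08 ± 0.225 CPM against 1.23 ± 0.154 CPM (SD, n = 3; log2 0.19, or -0.070 with library totals). Ackr1, a chemokine-binding protein of venules and red cells, averaged 0.613 ± 0.198 CPM against 0.420 ± 0.0628 CPM (SD, n = 3; log2 -0.54, adjusted p = 0.368).

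The 32 members that were not tested had at most 22 counts in a library. Ccr9, the receptor of CCL25, had 8, 9 and 19 counts in the control livers and 4, 3 and 4 in the knockout livers. Cxcr5, the B-cell follicle receptor, had 11, 3 and 6 counts against 0, 1 and 0. Ccr6 had 16, 3 and 8 counts against 4, 2 and 13, and Ccr10 had 8, 6 and 7 against 7, 14 and 8. Xcl1, a product of NK and T cells, had 4, 0 and 0 counts against 1, 9 and 7. In total counts Ccr9, Cxcr5 and Ccr6 were higher in the control livers, and Ccr10 and Xcl1 were higher in the knockout livers. Ccl1, Ccl8, Ccl11, Ccl17, Ccl20, Ccl28, Ccl27b, Cxcl17, Ccr4 and Ccr8 and the copies of Ccl21a, Ccl21b and Ccl27 had few counts, and the reads of the near-identical Ccl21 and Ccl27 copies are uncertain. In all 6 livers 8 of the 66 genes had 0 counts: Cxcl3, Cxcl15, Ccl26, Ccl19 and 4 copies on scaffolds.

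Levels can be compared between genes only per length, here as counts per kilobase of annotated exon (RPKM, from the CPM). The length joins all annotated exons of a gene: 8176 bases for Cxcl12, 3045 for Ccl9 and 1795 for Ccl6. The ranks, sums and shares depend on that choice of length. Before division by length, the control means were 150 CPM for Cxcl12, 147 for Ccl9 and 64.8 for Ccl6. In RPKM the most abundant ligands of the control livers were Ccl9 at 48.3 ± 14.0, Ccl6 at 36.1 ± 3.26, Cxcl12 at 18.4 ± 3.58, Cxcl1 at 16.3 ± 3.25 and Ccl2 at 9.24 ± 2.80 (SD, n = 3). Ccl9 was above Ccl6 in 2 of the 3 control livers. Cxcl12 was above Cxcl1 in each of the 3 (17.2 against 15.7, 15.5 against 13.5 and 22.4 against 19.9), although their ranges over the livers overlapped. In the knockout livers Cxcl12 came first at 37.8 ± 4.34, before Ccl9 at 30.4 ± 5.44, Ccl6 at 13.4 ± 3.71 and Cxcl9 at 4.40 ± 3.38 (SD, n = 3), while Cxcl1 was at 2.05 ± 1.31. Cxcl12 was above Ccl9 in each of the 3 knockout livers, with ranges that overlapped. The summed ligand RPKM was 157.6, 172.6 and 188.6 in the control livers and 98.8, 110.8 and 114.3 in the knockout livers. Without Cxcl12 the sum was 155 ± 13.1 against 70.2 ± 6.61 (SD, n = 3), and the summed receptor RPKM was 12.4 ± 1.82 against 5.49 ± 1.02. Cxcl12 made up 10.6% ± 1.46 of the summed ligand RPKM in the control livers and 35.0% ± 3.16 in the knockout livers (SD, n = 3). The ligand and receptor sums did not overlap between the groups.

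**Figure D3:**
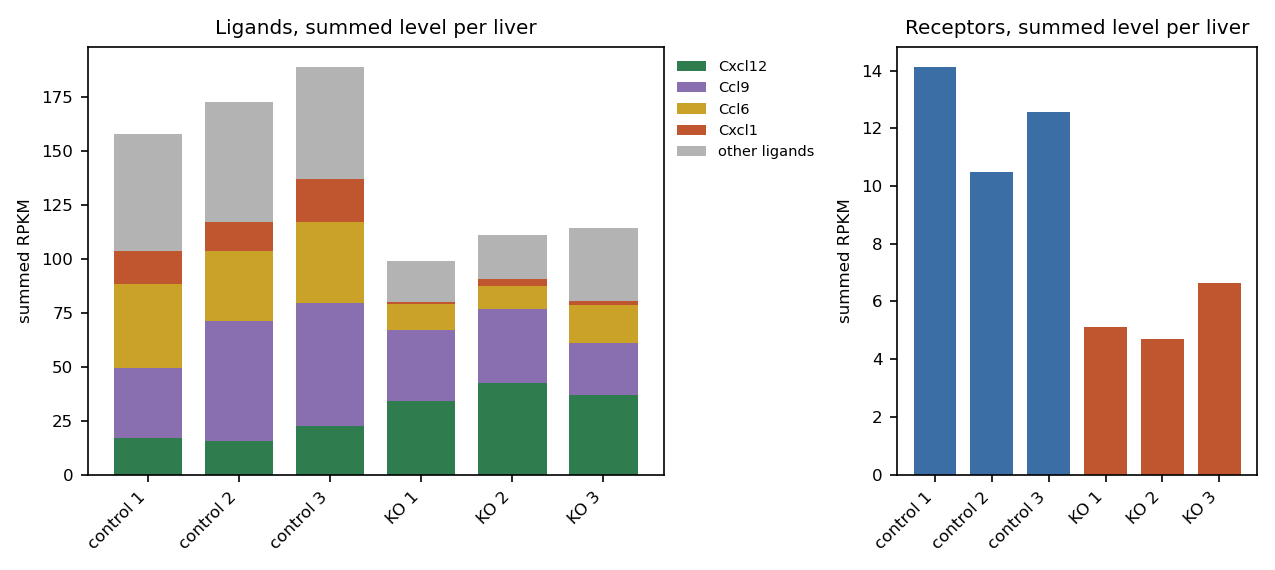
Summed RPKM of the ligand genes in each of the 6 livers, stacked by ligand, with the remaining ligands as 1 segment, and in a second panel of the receptor genes. The ligand bars reach 157.6 to 188.6 in the control livers and 98.8 to 114.3 in the knockout livers, and the Cxcl12 segment is the tallest only in the 3 knockout livers.

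Several members that fell are neighbours in the genome (GRCm38). Ccl2 and Ccl7 were the 2 tested members of the 6 at chr11:82035571-82305690, and both fell. Of the 5 at chr11:83525778-83664683, all tested, Ccl5 and Ccl6 fell and Ccl3, Ccl4 and Ccl9 did not pass. Cxcl1 and Cxcl2 were the 2 tested members of the 5 at chr5:90759360-90905938, and both fell. On chromosome 9 Ccr1 and Ccr2, which fell, lie in a cluster with Cxcr6 and Xcr1, which did not pass. In the cluster at chr4:41769467-42773993, which holds the Ccl19, Ccl21 and Ccl27 genes, 1 of 5 members was tested and did not pass. Genes of a cluster are not independent of each other.

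Markers of leukocytes differed between the groups too, and are given here because these cells carry the receptors and make many of the ligands. All 6 pan-leukocyte markers fell (median log2 -1.47; summed level 158 to 203 CPM in the control livers against 47.2 to 86.0 CPM in the knockout livers). Of 8 monocyte and macrophage markers, 6 fell (671 to 720 CPM against 160 to 354 CPM), Lyz2 among them. Lyz2 made up 195 to 235 CPM of the control sums and 36.9 to 66.5 CPM of the knockout sums. Its locus carries the Cre in the knockout mice, and the part of that allele in its fall was not tested. Also lower were 5 of 6 Kupffer cell markers (745 to 796 CPM against 226 to 485 CPM). Of 5 tested neutrophil markers, 4 fell (13.8 to 27.8 CPM against 3.07 to 7.49 CPM). Of the T and NK cell markers 0 of 3 tested passed in edgeR (3.24 to 5.31 CPM against 2.16 to 4.14 CPM), 1 was lower by its unadjusted p (under 0.05), and the count by DESeq2 and by limma-voom was 0. The B cell markers had a positive median (log2 0.54; 3.61 to 4.5 CPM against 4.27 to 6.21 CPM), and of 3 tested 0 passed in edgeR, DESeq2 or limma-voom, with 1 lower by its unadjusted p. Of 6 dendritic cell markers, which include Xcr1, edgeR called 0, with 4 lower at an unadjusted p under 0.05, 0 by DESeq2 and 1 by limma-voom (15.1 to 16.4 CPM against 11.0 to 11.7 CPM). Of cells known to make Cxcl12, 0 of 6 endothelial markers passed in edgeR (199 to 241 CPM against 165 to 228 CPM; 2 lower at an unadjusted p under 0.05, 1 by DESeq2 and 1 by limma-voom) and 3 of 6 stellate cell markers fell (196 to 246 CPM against 163 to 180 CPM). A further stellate marker, Reln, was higher in every knockout liver but did not pass (log2 0.38, edgeR adjusted p = 0.0873). It was the 1 stellate marker higher by its unadjusted p. Of 3 tested platelet markers, which include Pf4, 1 fell. Of 5 cholangiocyte markers 0 passed in edgeR, DESeq2 or limma-voom, with 1 lower by its unadjusted p. Of 6 hepatocyte markers, 3 rose. The part of these differences in the results for the members was not tested. Knockout liver 3 was the highest of its group for 10 of the 13 members that fell, for 6 of the 6 pan-leukocyte markers and for 7 of the 8 monocyte and macrophage markers. The share over all genes that fell was not counted, so these counts are not particular to the members.

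Set against the mean of the 6 pan-leukocyte markers in the same liver, members could be lower, higher or overlapping. The mean of those markers was lower by a log2 difference of -1.53. As a log2 ratio to it, 6 of the 34 tested members had all knockout livers below all control livers, as had 1.12% of all tested genes. They were Ccl7 (difference of the log2 ratio -2.58), Ccr1 (-2.15), Cxcl1 (-1.67), Ccl2 (-1.66), Cxcl2 (-1.26) and Cx3cr1 (-1.17). The value of Ccl7 rests on few counts, with 0 in knockout liver 1, to which 0.5 was added. For Cxcl1 and Ccl2 the highest knockout liver lay just under the lowest control liver. Of the other members that fell, 5 overlapped, and Cxcl16 (0.53) lay above the control livers on this ratio. In all, 12 of the 34 were higher with no overlap, Cxcl12 among them (2.58), as were 83.3% of all tested genes. This ratio was chosen after the values were seen and describes these livers without a test. It also depends on the markers taken. The median log2 difference was -1.47 for the pan-leukocyte markers and -1.97 for the neutrophil markers. It was -1.39 for the monocyte and macrophage markers and -0.87 for the Kupffer cell markers. Ratios to those other lists were not computed.

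**Figure D4:**
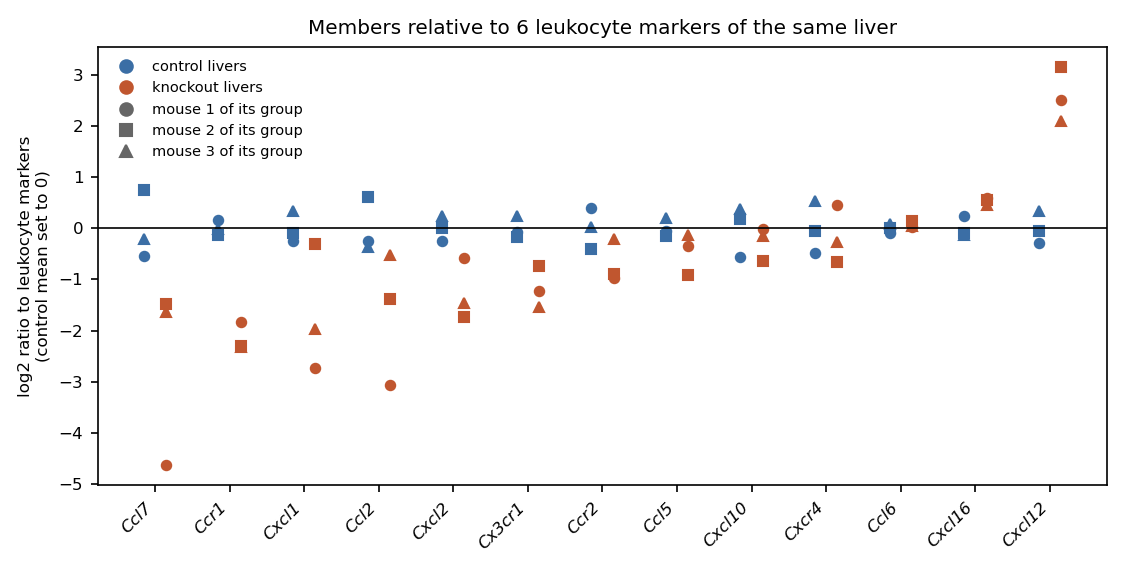
Log2 ratio of a member to the mean of 6 pan-leukocyte markers in the same liver (y axis, with the control mean of each gene set to 0; 1 point a liver) for 13 of the 14 members that passed the test. Ccl7, Ccr1, Cxcl1, Ccl2, Cxcl2 and Cx3cr1 stay below the control livers on this ratio, while Cxcl16 and Cxcl12 lie above them.

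Genes that act beside the family were given by lists. For comparison, 13.1% of all tested genes fell and 11.9% rose (median log2 -0.01). Of 4 relatives that the symbol rule leaves out, 2 were tested and both fell: Ccrl2, which presents chemerin, was at 4.45, 5.32 and 4.52 CPM against 2.68, 2.26 and 2.81 CPM (log2 -0.88, adjusted p = 0.0172), and Pf4, the platelet chemokine CXCL4, was at 3.73, 2.08 and 2.57 CPM against 0.671, 0.144 and 1.28 CPM (log2 -2.00, adjusted p = 0.0342). Leaving out control liver 2 or knockout liver 1 left 0 of the 2 past the threshold, and leaving out control liver 1 or 3 left 1. Of 10 other chemoattractants and their receptors, 5 fell and 1 rose (median log2 -0.81). Those that fell were the complement receptors C3ar1 (log2 -1.48, adjusted p = 0.00065) and C5ar1 (-1.76, 0.00108), the formyl peptide receptors Fpr2 (-1.88, 0.00255) and Fpr1 (-1.26, 0.00739), and the chemerin receptor Cmklr1 (-0.97, 0.00788). Rarres2, which encodes chemerin and is made by hepatocytes, rose from 201 ± 20.6 to 268 ± 10.2 CPM (SD, n = 3; log2 0.42, adjusted p = 0.0356).

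Genes downstream of the receptors were listed together, whether they carry the signal or shorten it. Over all tested genes 13.1% fell and 11.9% rose, with a median log2 of -0.01. In the list 18 of 22 signalling genes fell and 0 rose (median log2 -0.89). By DESeq2, by limma-voom or by an unadjusted p under 0.05, 0 were higher. Among those with the smallest p-values were Rgs2 (log2 -1.67, adjusted p = 0.000869) and Rgs1 (-2.50, 0.00246), which shorten G-protein signals, the exchange factor Vav1 (-1.21, 0.00342) and the arrestins Arrb2 (-0.72, 0.0067) and Arrb1 (-0.71, 0.00676). The count was 11 without control liver 1 and 11 without knockout liver 1. Of 19 tested inducers and regulators of chemokine transcription, 12 fell and 0 rose (median log2 -0.58). The 12 include Nfkbia and Tnfaip3, which restrain NF-kappa-B and are not inducers. By DESeq2, by limma-voom or by an unadjusted p under 0.05, 0 were higher. Without control liver 2, 8 of the tested genes fell, and without knockout liver 1, 8 fell. The 12 that fell with every liver kept included Cd14, the endotoxin co-receptor (log2 -2.70, adjusted p = 0.00117), the interferon-gamma receptor chain Ifngr1 (-1.03, 0.0012), Tnfaip3, an NF-kappa-B target that restrains the pathway (-1.61, 0.0034), the NF-kappa-B subunits Relb (-1.77, 0.00472) and Nfkb2 (-1.31, 0.00667), and the endotoxin receptor Tlr4 (-1.06, 0.012). Many of these genes are expressed mainly by leukocytes, whose markers fell as given above, and their part in these counts was not tested.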

How the data were processed

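Libraries were made from liver RNA after poly-T selection, per the labels' protocols. The authors deposited raw read counts per gene; the submitters' processing notes name featureCounts 1.5.0-p3, HISAT2 2.0.5, GRCm38.p6 and StringTie 1.3.3b, without roles. Strand setting, treatment of multimapping reads and annotation release are not given in the sources used here, so overlapping genes and near-identical copies are uncertain. Of 54532 gene IDs, 54495 matched GENCODE M21, which gave symbols, biotypes and exon lengths. The whole table was fitted with edgeR 4.0.16 (filterByExpr, TMM, quasi-likelihood test, Benjamini-Hochberg adjustment; R 4.3.3); limma-voom (limma 3.58.1) and DESeq2 1.42.0 were alternatives, with other scalings, filters, a replicate block and each liver left out. CPM used TMM-scaled library sizes; within-library log2 differences and ratios added 0.5 counts. On simulated counts for this comparison, 7.29% of 1.5-fold, 51.9% of 2-fold and 91.6% of 4-fold changes were recovered over 14469 to 14518 tested genes, and 8.29% of calls were false. The simulation changed a small share of the genes, below the 25% called here, so these rates need not hold for the real data. The titles number separate mice; replicates differed beyond sampling noise (chi-square per degree of freedom at least 26.3). The rule named every tested member, gave members that passed in every liver, and named up to 6 passing genes of each pathway list by smallest p; 2 genes it names are not reported here. The members and lists were chosen with earlier results of these data known, and the gene pairs, leukocyte ratio and promoter motifs after values were seen.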

Additional observations from a re-analysis of the deposited data

How the results depend on the processing

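Over 14 alternative settings, 12 to 18 members fell (13 as reported) and 1 rose in each. With at least 50 counts required in 3 libraries Ccl7 was not tested and 12 fell. Mouse numbers did not pair the livers (correlations of same-numbered deviations -0.03, 0.04 and -0.02); with the replicate block 13 members fell and 1 rose, 3086 genes passed in all, and 15 signalling genes fell. Leaving out 1 liver gave 2275 to 3413 genes passed, 1183 to 1837 lower and 1086 to 1576 higher. In these fits 11 to 17 signalling genes were lower, and 0 to 1 inducers or regulators were higher. Of the relatives outside the rule, 0 to 2 were lower (1 with the filter of 50 counts). Library totals in place of TMM moved the median of all genes to -0.26, gave 3698 genes lower and 904 higher (80.4% of calls lower, against 52.5%), and reversed the sign of Ackr2 (-0.070) and Ccl25 (-0.023), neither of which passed. Leaving out 1 liver turned the sign of 4 other members that did not pass, over the ranges -2.15 to 0.17 for Ccl22, -0.18 to 0.076 for Ccl24, -1.62 to 0.11 for Cxcl13 (which passed without knockout liver 2) and -0.48 to 0.075 for Cxcr3. The cause of these changes was not tested. Depth limits the 32 members that missed the count filter; with no filter 58 members were tested and 18 fell, some of these 32 among them.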

Other observations

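Cxcl11, the third CXCR3 ligand, is annotated as a polymorphic pseudogene in GENCODE M21 and was therefore no member; C57BL/6 mice are known to carry an allele that makes no full protein. Its RNA was at 0.794, 1.5 and 1.61 CPM in the control livers and at 3.69, 4.57 and 2.46 CPM in the knockout livers, with no overlap. It rose 2.76-fold (log2 1.46, SE 0.35, adjusted p = 0.0187), where Cxcl10 fell and Cxcl9 did not pass. Its exons share 1582 bases with Gm2673, and the use of strand in counting is unknown here. A pseudogene of the Ccl19 family, Ccl19-ps3, had 21, 11 and 21 counts in the control livers and 2, 2 and 10 in the knockout livers.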
